A study of Mus musculus with 9 samples.

Results

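Nek7 and 7 inflammasome genes were followed in the colon of C57BL/6J mice with and without chemically induced colitis. The genes were Nek7, Nlrp3, Nlrc4, Nlrp6, Aim2, Pycard, Casp1 and Casp4, found by symbol, and all 8 had a row in the deposited table of 35315 genes. Bulk RNA sequencing was done on 9 colon libraries from wild-type mice aged 8 weeks, 3 in each of 3 groups. In the GsMTx4 group the drinking water held 2.5% DSS (dextran sulfate sodium), an agent that causes colitis in mice, over 7 days, and the animals received GsMTx4 at 10 mg/kg into a vein on days 2, 4 and 6. GsMTx4 is a spider-venom peptide that blocks cation channels opened by mechanical force. The DSS group had the same water and injections of solvent. Control mice drank normal water with no injection listed, so DSS and the injections cannot be told apart in any comparison with Control. Whether each library is a different mouse is not stated, and the spread within a group may therefore be technical.

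Inflammasomes are protein platforms of innate immunity that assemble when a sensor detects a microbial product or cell damage. The sensor recruits the adaptor ASC, encoded by Pycard, which gathers caspase-1. Caspase-1 then matures interleukin-1 beta and interleukin-18 and cuts gasdermin D, whose fragment opens pores in the cell membrane. NEK7, a kinase also used in mitosis, binds NLRP3 and is needed for its assembly. In the gut NLRP6 is made mainly by epithelial cells, and the NAIP and NLRC4 pair detects bacterial flagellin and secretion systems.

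All values are FPKM, fragment counts scaled to transcript length and library total, so levels can be set side by side between genes. Differences are in log2(FPKM + 1) ± standard error (SE) from a limma fit to all 9 libraries, which understates the change of low genes. Genes with at least 1 FPKM in at least 3 libraries were tested, which left 14360 genes and 7 of the 8 members. Nlrp3 reached 1 FPKM in 1 library and has values only. The members were chosen by symbol, but with their FPKM differences in all 3 comparisons of these libraries already known, so they count as selected on those values. Their levels and differences are therefore a description with no p-value. Genes outside the 8 are said to have risen or fallen where the limma p was under 0.05 after Benjamini-Hochberg adjustment across the 14360 genes. The comparisons share libraries: DSS libraries enter 2 of them with opposite sign.

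FPKM sums ran from 349125 to 440935 per library, and 12830 to 14036 genes reached 1 FPKM. Read numbers are unknown. The smallest nonzero values fall in steps whose size put the relative depth at 0.768 to 1.09 times that of Control 1, a step shared by 5.49% to 9.25% of the low genes compared. The median difference of all tested genes was -0.17 for DSS against Control, 0.07 for GsMTx4 against DSS and -0.08 for GsMTx4 against Control. Of the calls in DSS against Control 37.4% were higher, and 60.7% after median-of-ratios scaling or 50.1% after quantile normalization, which shifted the median by 0.16 and 0.11, while TPM rescaling shifted it by -0.11. The share of higher calls in GsMTx4 against DSS was 54.2%, and 43.3% after median-of-ratios scaling, and in GsMTx4 against Control it was 79.4%, and 89.7% after quantile normalization. Colonic epithelial markers such as Epcam, Krt8 and Slc26a3 were abundant in every library, as the tissue label says.

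Stretches upstream of the RefSeq start site (GRCm38.p6) are shown for 4 members, because 3 of them were lowest in DSS or in GsMTx4 colon and Casp4 was higher in both than in Control on average. They run 5′ to 3′ on the gene's strand and leave out bases that an annotated exon of the gene covers. Capitals mark matches to the letters GGGNNNNNCC, read on both strands as an NF-kB-like pattern, or TGANTCA, an AP-1-like pattern.
Nek7, chr1:138619758-138619903, minus strand: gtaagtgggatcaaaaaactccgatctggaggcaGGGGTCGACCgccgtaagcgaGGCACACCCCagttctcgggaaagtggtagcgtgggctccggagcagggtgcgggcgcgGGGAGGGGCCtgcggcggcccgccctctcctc
Nlrp6, chr7:140920652-140920901, plus strand: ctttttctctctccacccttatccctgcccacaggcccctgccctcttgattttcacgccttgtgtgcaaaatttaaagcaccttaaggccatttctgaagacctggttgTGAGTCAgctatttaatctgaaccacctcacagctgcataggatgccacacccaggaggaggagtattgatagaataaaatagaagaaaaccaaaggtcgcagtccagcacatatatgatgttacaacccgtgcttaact
Pycard, chr7:127993868-127994117, minus strand: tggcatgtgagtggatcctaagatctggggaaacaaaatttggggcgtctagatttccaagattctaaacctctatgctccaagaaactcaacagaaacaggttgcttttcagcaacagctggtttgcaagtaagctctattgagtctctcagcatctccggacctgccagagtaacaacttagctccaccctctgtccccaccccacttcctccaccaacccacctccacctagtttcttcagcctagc
Casp4, chr9:5308599-5308827, plus strand: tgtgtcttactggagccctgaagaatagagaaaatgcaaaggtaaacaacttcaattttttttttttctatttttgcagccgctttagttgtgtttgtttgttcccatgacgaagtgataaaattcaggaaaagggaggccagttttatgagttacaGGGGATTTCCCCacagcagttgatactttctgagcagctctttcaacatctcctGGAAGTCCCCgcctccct

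The 250 bases before the start held 3 NF-kB-like matches in Nek7, 5 in Casp4 (3 of them overlapping, and the nearest to the start outside the stretch shown) and 1 in Casp1. None was found in the windows of Nlrp6, Pycard, Nlrc4 and Aim2, and Nlrp3 had 1 in the window of 1 of its 2 start sites. The AP-1-like letters occurred once, in Nlrp6, 140 bases before the start. Another pattern, GAAANNGAAA, an interferon-factor-like motif, was in no member's window. Over 32841 promoter windows of the same length, 45.8% held the NF-kB-like letters, 6.75% the AP-1-like letters and 2.98% the interferon-factor-like letters. Nek7 had the window richest in CpG among the 8 genes, with 17 CpG pairs and 58.8% G and C, against a median of 6 CpG pairs and 52.4% over all windows. The other 7 genes had at most 4 CpG pairs. The Nek7 window lies inside the gene as annotated in GENCODE M21, which runs to 138620141, and an exon covers part of the window. The Aim2 window and 1 of the 2 Nlrp3 windows also lie inside their genes. The motif matches are letters only, and no binding was measured.

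Nek7 was low in the colon of both DSS-drinking groups. It is on chromosome 1 (138482875 to 138620141, minus strand, GRCm38), with 3 protein-coding transcripts in GENCODE M21, and Gm28501 overlaps it on the opposite strand. Nek7 stood at 2.86, 3.09 and 2.56 FPKM in GsMTx4 colon, 3.26, 3.42 and 5.10 FPKM in DSS colon and 10.4, 10.1 and 9.96 FPKM in Control colon. The GsMTx4 libraries were all below the DSS libraries, and the DSS libraries all below Control. The mean was 2.84 ± 0.267 FPKM in GsMTx4, 3.93 ± 1.02 FPKM in DSS and 10.2 ± 0.236 FPKM in Control (SD, n = 3 each), so GsMTx4 colon held 27.9% and DSS colon 38.6% of the Control level. The difference was -1.20 ± 0.15 for DSS against Control and -1.54 ± 0.15 for GsMTx4 against Control. For GsMTx4 against DSS it was -0.34 ± 0.15, and -0.18 without DSS 3, the DSS library with the highest Nek7. In bulk tissue, fewer cells that express a gene and less RNA per cell cannot be told apart, here and for every gene below.

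**Figure D1:**
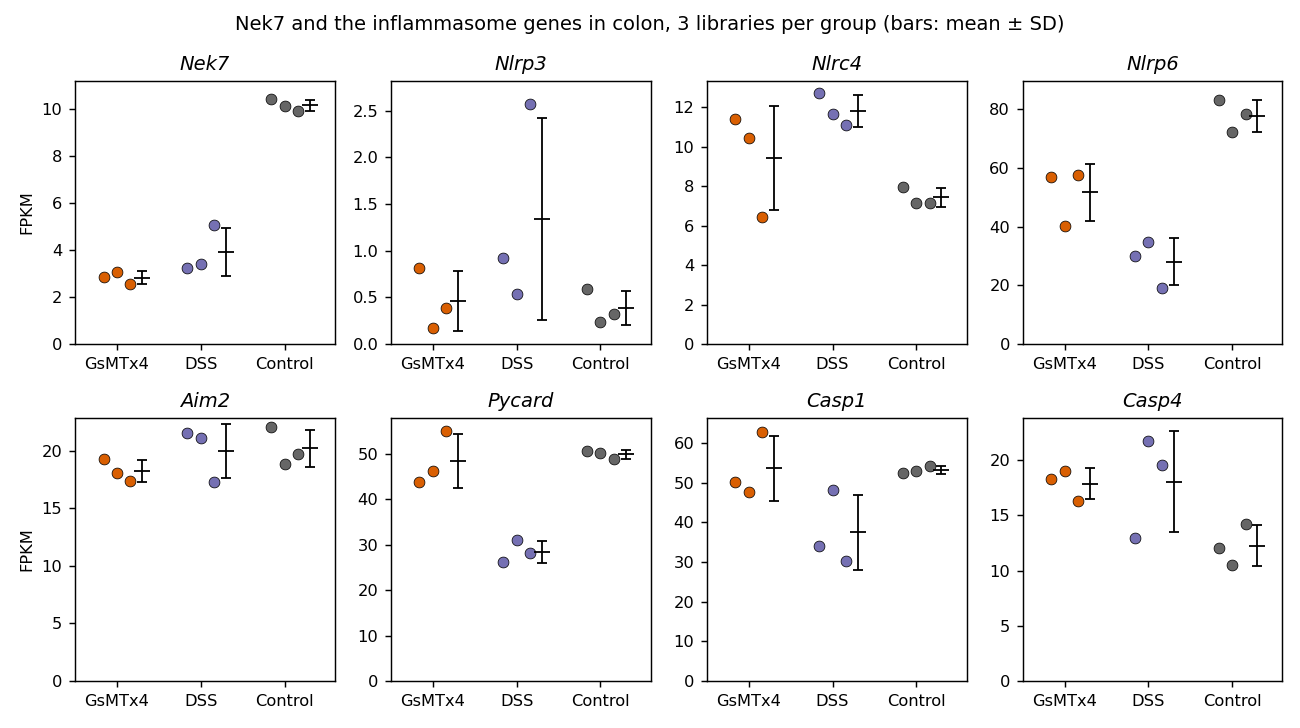
FPKM of the 8 members, 1 panel a gene, with each library as a point and the mean ± SD of 3 libraries beside it, for GsMTx4, DSS and Control colon (the FPKM axis starts at 0 and its range differs between panels). Nek7 is at 2.56 to 5.10 FPKM in the DSS-drinking groups and at 9.96 to 10.4 FPKM in Control, while Pycard is low in DSS colon and close to Control in GsMTx4 colon.

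Nlrp3, the sensor that NEK7 binds, was near the bottom of the measurable range. It is on chromosome 11 (59541568 to 59566956). Nlrp3 stood at 0.814, 0.179 and 0.393 FPKM in GsMTx4 colon, 0.919, 0.534 and 2.57 FPKM in DSS colon and 0.593, 0.242 and 0.324 FPKM in Control colon. The groups overlapped in every comparison, and DSS 3 alone was above 1 FPKM. DSS 3 was also the library with the most S100a8, a neutrophil gene, at 83.2 FPKM, against 28.1 and 40.5 FPKM in the other DSS libraries. The neutrophil markers S100a9, Cxcr2, Csf3r, Retnlg and Mmp9 were highest in DSS 3 too. Ly6g, listed with these markers, went the other way, at 472 FPKM in DSS 3 against 564 and 1036 FPKM in DSS 1 and DSS 2. A link between these markers and Nlrp3 was not tested.

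Nlrc4, on chromosome 17 (74425438 to 74459142), is the sensor that acts with NAIP receptors. Its level was 11.4, 10.4 and 6.46 FPKM in GsMTx4 colon, 12.7, 11.7 and 11.1 FPKM in DSS colon and 7.97, 7.18 and 7.15 FPKM in Control colon. The DSS libraries lay above Control, while the GsMTx4 libraries spread over both, with GsMTx4 3 the lowest of the 9. The difference was 0.60 ± 0.19 for DSS against Control. It was -0.33 ± 0.19 for GsMTx4 against DSS, and -0.10 without GsMTx4 3. For GsMTx4 against Control it was 0.27 ± 0.19, with 0.50 when GsMTx4 3 was left out and 0.13 when GsMTx4 1 was.

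Nlrp6, the sensor of the gut epithelium on chromosome 7 (140920902 to 140929192), was the highest of the 8 genes in Control colon. It stood at 56.9, 40.4 and 57.7 FPKM in GsMTx4 colon, 30.1, 34.8 and 19.3 FPKM in DSS colon and 83.0, 72.2 and 78.2 FPKM in Control colon. The groups did not overlap in any comparison, with DSS lowest and GsMTx4 in between. DSS colon held 36.1% and GsMTx4 colon 66.4% of the Control mean. The difference was -1.48 ± 0.23 for DSS against Control, 0.88 ± 0.23 for GsMTx4 against DSS and -0.60 ± 0.23 for GsMTx4 against Control.

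Aim2, the sensor of DNA in the cytosol (chromosome 1, 173350879 to 173466040), was close to level across the groups. It stood at 19.3, 18.1 and 17.3 FPKM in GsMTx4 colon, 21.6, 21.1 and 17.3 FPKM in DSS colon and 22.0, 18.9 and 19.7 FPKM in Control colon, with overlap in every comparison. The differences ran from -0.14 ± 0.13 for GsMTx4 against Control to -0.02 ± 0.13 for DSS against Control. The DSS against Control value was 0.17 after median-of-ratios scaling, which shifted the median of all genes by 0.16.

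Pycard, the gene of the adaptor ASC (chromosome 7, 127989708 to 127993867), was low in DSS colon. It stood at 43.8, 46.4 and 55.1 FPKM in GsMTx4 colon, 26.1, 31.0 and 28.3 FPKM in DSS colon and 50.8, 50.2 and 48.8 FPKM in Control colon. All DSS libraries were below all libraries of the other groups, and the GsMTx4 libraries lay on both sides of Control. The difference was -0.79 ± 0.13 for DSS against Control, 0.74 ± 0.13 for GsMTx4 against DSS and -0.05 ± 0.13 for GsMTx4 against Control. An exon of Gm45205 overlaps Pycard on the opposite strand, and its mean was 0.244 FPKM.

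Casp1 and Casp4 are neighbours on chromosome 9 (5298517 to 5307265 and 5308828 to 5336783). Casp1, the protease that ASC gathers, stood at 50.3, 47.8 and 62.9 FPKM in GsMTx4 colon, 34.1, 48.3 and 30.2 FPKM in DSS colon and 52.4, 53.0 and 54.3 FPKM in Control colon. DSS was below Control in every library, but DSS 2 was within the GsMTx4 range. The difference was -0.52 ± 0.19 for DSS against Control, and -0.33 after median-of-ratios scaling. It was 0.52 ± 0.19 for GsMTx4 against DSS and 0.00 ± 0.19 for GsMTx4 against Control. Casp4, known in mice as caspase-11, is the protease that binds bacterial lipopolysaccharide in the cytosol. It stood at 18.3, 19.0 and 16.3 FPKM in GsMTx4 colon, 12.9, 21.7 and 19.5 FPKM in DSS colon and 12.0, 10.5 and 14.2 FPKM in Control colon. The GsMTx4 libraries were all above Control, while DSS 1 was within the Control range. The difference was 0.50 ± 0.19 for DSS against Control, 0.52 ± 0.19 for GsMTx4 against Control and 0.01 ± 0.19 for GsMTx4 against DSS. By their means, Casp1 and Casp4 lay on opposite sides of Control in DSS colon.

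**Figure D2:**
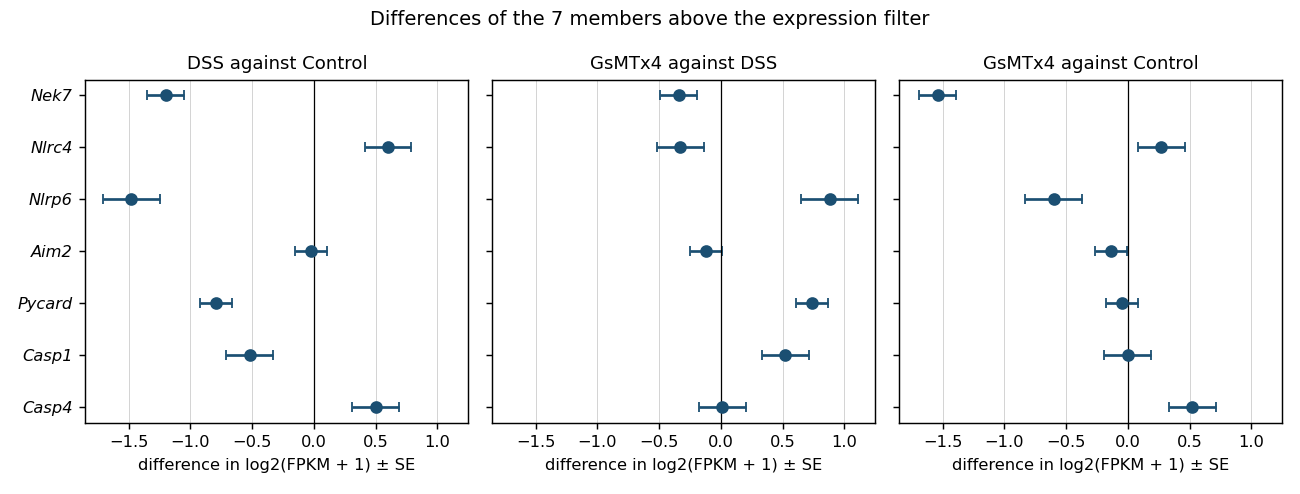
Difference in log2(FPKM + 1) with its SE for the 7 members above the expression filter, 1 panel a comparison, with 3 libraries per group. Nek7 lies below 0 in all 3 panels, at -1.20, -0.34 and -1.54, whereas Nlrp6, Pycard and Casp1 lie below 0 for DSS against Control and above 0 for GsMTx4 against DSS.

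The order of the members' levels also differed between groups. In GsMTx4 colon Casp1, Nlrp6 and Pycard came first with overlapping libraries, at means of 53.7, 51.7 and 48.4 FPKM. In DSS colon Casp1, Pycard, Nlrp6, Aim2 and Casp4 came in that order, at means of 37.5, 28.5, 28.1, 20.0 and 18.1 FPKM. Each of them overlapped the gene after it, except Casp4, which did not overlap Nlrc4. In Control colon the order was Nlrp6, Casp1, Pycard, Aim2, Casp4, Nek7, Nlrc4 and Nlrp3, and no neighbours overlapped. Nek7 was above Nlrc4 in Control colon and below it in the other groups.

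By the limma call, 3 of the 7 tested members passed as lower in DSS against Control (Nek7, Nlrp6 and Pycard), a direction called for 10.7% of all tested genes. Groups did not overlap for 5 members in either direction, against 47.1% of all genes. They did not for 4 members as lower, Casp1 being the other one, against 33.6% of all genes, and for 1 member that was higher (Nlrc4), against 13.5%. In GsMTx4 against DSS 2 members passed as higher (Nlrp6 and Pycard), against 6.66% of all genes. That count was 1 without GsMTx4 1, GsMTx4 3, DSS 1, DSS 3 or any 1 Control library. Groups did not overlap for 3 members in either direction, against 30.3% of all genes. They did not for the same 2 members, against 17.5% of all genes, and for 1 lower member (Nek7), against 12.8%. In GsMTx4 against Control 1 member passed as lower, Nek7, against 0.0487% of all genes, which is 7 genes (0.237% in either direction), and 1 also when any 1 library was left out. Groups did not overlap for 3 members in either direction, against 19.6%: for Nek7 and Nlrp6 as lower, against 14.6%, and for Casp4 as higher, against 718 of the 14360 genes. Since these comparisons were known when the members were picked, nothing is read from the counts. The members' median difference was -0.52 for DSS against Control, 0.01 for GsMTx4 against DSS and -0.05 for GsMTx4 against Control.

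None of the other NEK kinases tested was called by limma. Of 10 other family genes 7 were tested, and 0 passed in each comparison, with 3 lower at an unadjusted p under 0.05 in DSS against Control, 2 higher in GsMTx4 against DSS and 1 lower in GsMTx4 against Control. The family's median difference was -0.20, 0.15 and -0.08 in these comparisons, against -0.17, 0.07 and -0.08 for all tested genes. Under quantile normalization 1 of the 7 passed as higher in GsMTx4 against DSS. Nek1, Nek4 and Nek8 were lower in every DSS library than in every Control library, at 63.2%, 61.8% and 81.6% of the Control mean, and Nek2 was at 46.1% with overlap. Their limma adjusted p-values for DSS against Control were 0.106 for Nek1, 0.0826 for Nek4, 0.383 for Nek8 and 0.0769 for Nek2. In GsMTx4 colon Nek1, Nek2 and Nek4 were above every DSS library, unlike Nek7. Nek6, the closest relative of Nek7, stood at 5.28, 6.88 and 3.66 FPKM in GsMTx4 colon, 6.63, 5.82 and 7.60 FPKM in DSS colon and 5.04, 6.19 and 5.66 FPKM in Control colon. Its difference was 0.21 ± 0.19 for DSS against Control (limma adjusted p = 0.457) and -0.11 ± 0.19 for GsMTx4 against Control (limma adjusted p = 0.881). Nek9, whose kinase activates NEK6 and NEK7 in mitosis, averaged 18.3 ± 2.64 FPKM in GsMTx4, 17.8 ± 2.64 FPKM in DSS and 18.6 ± 0.79 FPKM in Control (SD, n = 3 each), with a difference of -0.07 ± 0.15 for DSS against Control (limma adjusted p = 0.755). Nek6 and Nek9 overlapped between all groups. Whether Nek7 differed from its relatives was not tested, since Nek7 was picked for its values.

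**Figure D3:**
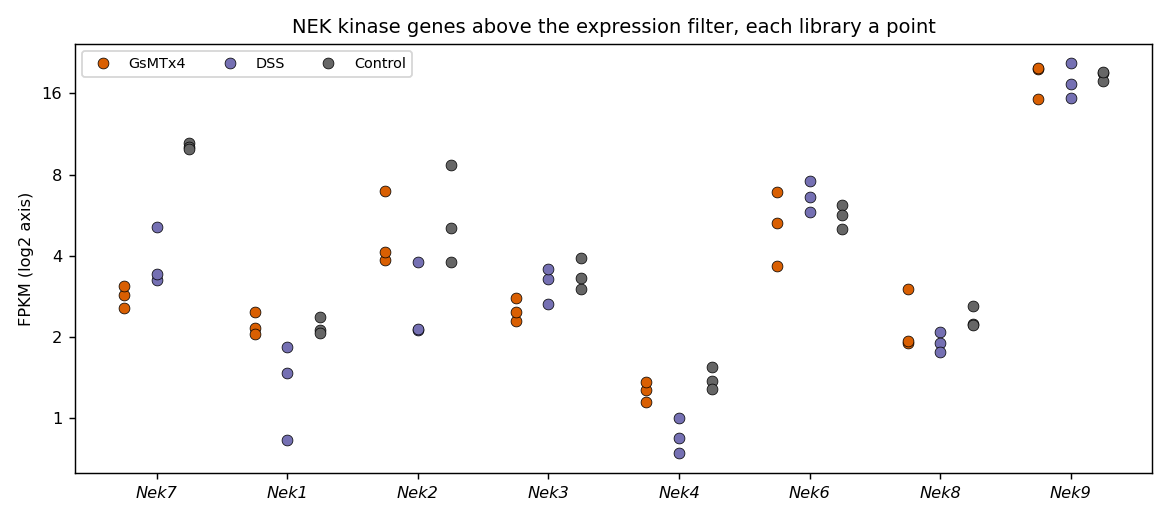
FPKM of Nek7 and the 7 tested NEK relatives on a log2 axis, each library a point, with GsMTx4, DSS and Control side by side for each gene. The 3 Control libraries of Nek7 lie at 9.96 to 10.4 FPKM, above its other 6 libraries, while Nek6 and Nek9 overlap between groups.

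The genes whose pattern over the 9 libraries was most like that of Nek7 were Lgals3bp (Pearson r = 0.978), H2-T24 (0.960), Rbm4 (0.957), Thap1 (0.937) and Mrpl15 (0.934), and 31 of 12612 named genes were above 0.9. These correlations are of log2(FPKM + 1), and the 9 points share the gap between Control and the DSS-drinking groups. Over the deviations from group means, r was 0.91 for Lgals3bp and 0.44 to 0.63 for the other 4. Lgals3bp, a secreted glycoprotein gene, averaged 91.4 FPKM in GsMTx4, 107 FPKM in DSS and 194 FPKM in Control.

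Around the 8 members, 85 other genes of the pathway were listed by role, and 72 were tested. The lists were written with earlier results of these data known. Their counts, medians and p-values, here and below, therefore describe these libraries and are no independent evidence about the pathway. In DSS against Control 14 rose and 8 fell. The counts were lower without single libraries: 9 rose without DSS 2, 8 without Control 1, and 7 without Control 2 or Control 3, and 5 fell without Control 1 and 2 without Control 2 or Control 3. The median difference of the 72 genes was 0.15, against -0.17 for all tested genes, and 6.41% of all genes rose and 10.7% fell.

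Among 17 tested other sensors and adaptors 4 rose and 3 fell in DSS against Control. Mefv, which encodes the inflammasome sensor pyrin, averaged 3.67 ± 0.696 FPKM in DSS and 1.18 ± 0.517 FPKM in Control, a difference of 1.12 ± 0.19 (limma adjusted p = 0.00594). Ifi209, of the same DNA-sensor family as Aim2, rose by 1.07 ± 0.16 (limma adjusted p = 0.00403). Nlrx1, a mitochondrial NLR protein, rose by 0.88 ± 0.23 (limma adjusted p = 0.0336), a call lost when any 1 DSS or Control library was left out (adjusted p = 0.0528 to 0.102). The fourth gene, named after its values were seen, was Card9, an adaptor gene of fungal receptors (0.74 ± 0.18, limma adjusted p = 0.0223). The flagellin receptor genes Naip6 and Naip5, partners of Nlrc4, fell, while Nlrc4 was higher in DSS than in Control libraries. Naip6 averaged 11.01 ± 2.08 FPKM in DSS and 28.2 ± 3.50 FPKM in Control, a difference of -1.29 ± 0.28 (limma adjusted p = 0.0152, and 0.0586 to 0.0605 without Control 2 or Control 3). Naip5 fell by 0.75 on the same scale (limma adjusted p = 0.0315), and the call was lost without any 1 DSS or Control library (adjusted p = 0.0535 to 0.109). Naip genes are close copies of each other, and reads may have been divided between them. Nlrc5, which drives MHC class I genes, fell by 0.80 (limma adjusted p = 0.0171, and 0.0578 to 0.0705 without Control 2 or Control 3). Rises in the list numbered 2 without DSS 3, Control 1 or Control 2, and falls 0 without Control 2 or Control 3. Rises also numbered 2 with no filter, and 2 with a mean filter of 5 FPKM, which left Mefv and Card9 untested. The calls of Naip5 and Nlrx1 were lost with no filter or TPM rescaling, and that of Naip5 under median-of-ratios scaling too (adjusted p = 0.0555 to 0.0686 for Naip5 and 0.0813 to 0.0912 for Nlrx1).

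Of 23 tested genes of NLRP3 activation and licensing 3 rose and 3 fell. Kcnk6, a potassium channel gene, averaged 19.5 ± 1.48 FPKM in DSS and 9.47 ± 1.15 FPKM in Control, a difference of 0.97 ± 0.23 (limma adjusted p = 0.0205, and 0.0526 to 0.0759 without DSS 2, DSS 3, Control 2 or Control 3). Tlr4, the lipopolysaccharide receptor, rose by 1.23 ± 0.33 (limma adjusted p = 0.0357, and 0.0529 to 0.0957 without DSS 2, DSS 3, Control 1 or Control 3), with a difference of 0.81 without Control 1. The chloride channel gene Clic1 rose by 0.64 ± 0.17 (limma adjusted p = 0.0341), and leaving out DSS 1, DSS 2 or any 1 Control library ended the call (adjusted p = 0.0577 to 0.123). Xrcc5, whose product Ku80 binds DNA ends, fell to 4.52 ± 0.626 FPKM in DSS, against 9.07 ± 0.786 FPKM in Control, a difference of -0.87 ± 0.15 (limma adjusted p = 0.00625). The guanylate-binding protein gene Gbp7 fell by 1.10 (limma adjusted p = 0.0214, and 0.0598 to 0.0753 without any 1 Control library), and the kinase gene Pkn2 by 0.62 (limma adjusted p = 0.0156, and 0.0627 to 0.0705 without Control 2 or Control 3). P2rx7, the ATP-gated channel that triggers NLRP3, had a difference of 0.79 ± 0.32 (limma adjusted p = 0.116), and Txnip, a thioredoxin-binding protein gene, of 0.37 ± 0.18 (limma adjusted p = 0.177). Rises numbered 0 without DSS 2 or Control 3 and 1 without DSS 3, Control 1 or Control 2, and falls 1 without Control 2 or Control 3. Rises also numbered 0 with no filter and 1 after TPM rescaling. Kcnk6 was lost in both of these settings (adjusted p = 0.0527 to 0.0611), and so was Tlr4, which was lost with only the 2 groups as well (0.0504 to 0.0933). Clic1 was lost with no filter or quantile normalization (0.0576 to 0.0649), and Gbp7 with no filter or median-of-ratios scaling (0.0570 to 0.0577).

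Genes that restrain inflammasomes rose in 4 of 14 tested cases and fell in 1. Serpinb1a, an inhibitor of neutrophil proteases, averaged 405 ± 107 FPKM in DSS and 181 ± 8.41 FPKM in Control, a difference of 1.13 ± 0.20 (limma adjusted p = 0.00781). Cd300a, an inhibitory receptor of myeloid cells, rose by 1.05 ± 0.17 (limma adjusted p = 0.00461). Trim31, a ubiquitin ligase gene for NLRP3, rose by 0.70 ± 0.19 (limma adjusted p = 0.0335, and 0.0819 to 0.116 without DSS 2 or any 1 Control library). Sqstm1, an autophagy receptor gene, rose by 0.45 ± 0.13 (limma adjusted p = 0.0425), a call lost without GsMTx4 2 or any 1 DSS or Control library (adjusted p = 0.0529 to 0.163). Trim30a fell by 0.80 (limma adjusted p = 0.0340), which did not pass when DSS 1, DSS 2 or any 1 Control library was left out (adjusted p = 0.0665 to 0.103). Rises numbered 2 without any 1 Control library, and falls 0 without DSS 1, DSS 2 or any 1 Control library. Rises also numbered 2 with no filter or TPM rescaling, settings in which Trim31 (adjusted p = 0.0668 to 0.0701) and Sqstm1 were lost, Sqstm1 under quantile normalization too (0.0509 to 0.122). Trim30a was lost with no filter or median-of-ratios scaling (0.0760 to 0.0992).

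Of 11 tested effectors and substrates 3 rose and 1 fell in DSS against Control. Gsdmd, the gene of the pore-forming gasdermin D, stood at 164, 97.8 and 108 FPKM in GsMTx4 colon, 222, 275 and 159 FPKM in DSS colon and 78.2, 81.5 and 96.8 FPKM in Control colon, a difference of 1.31 ± 0.25 for DSS against Control (limma adjusted p = 0.00983). Il18, which needs caspase-1 to mature, stood at 108, 108 and 70.3 FPKM in GsMTx4 colon, 117, 119 and 90.9 FPKM in DSS colon and 50.7, 57.4 and 45.9 FPKM in Control colon, and rose by 1.07 ± 0.20 in DSS against Control (limma adjusted p = 0.00946). Both genes rose in DSS colon, in which Pycard and Casp1 were lower than in Control. Il33, an alarmin of the interleukin-1 family, rose by 1.98 ± 0.45 (limma adjusted p = 0.0192, and 0.0627 to 0.0687 without Control 2 or Control 3). Hmgb1, a nuclear protein released by dying cells, fell by 0.90 (limma adjusted p = 0.00601). Il1b did not pass, with a difference of 1.80 ± 0.55 (limma adjusted p = 0.0515). It passed without DSS 1 or DSS 3 (adjusted p = 0.0177 to 0.0337), with a difference of 2.36 without DSS 1 and 1.04 without DSS 3. It also passed with pseudocounts of 0.1 or 0.01, median-of-ratios scaling or quantile normalization (0.0381 to 0.0485). Casp8, a protease that can also act at ASC, had 0.47 ± 0.15 (limma adjusted p = 0.0565, and 0.0460 without GsMTx4 3), and passed under median-of-ratios scaling and quantile normalization (0.0324 to 0.0376). Il33 was lost with no filter (adjusted p = 0.0594). Rises in the list numbered 5 without DSS 1 or with pseudocounts of 0.1 or 0.01, and 6 under median-of-ratios scaling or quantile normalization.

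**Figure D4:**
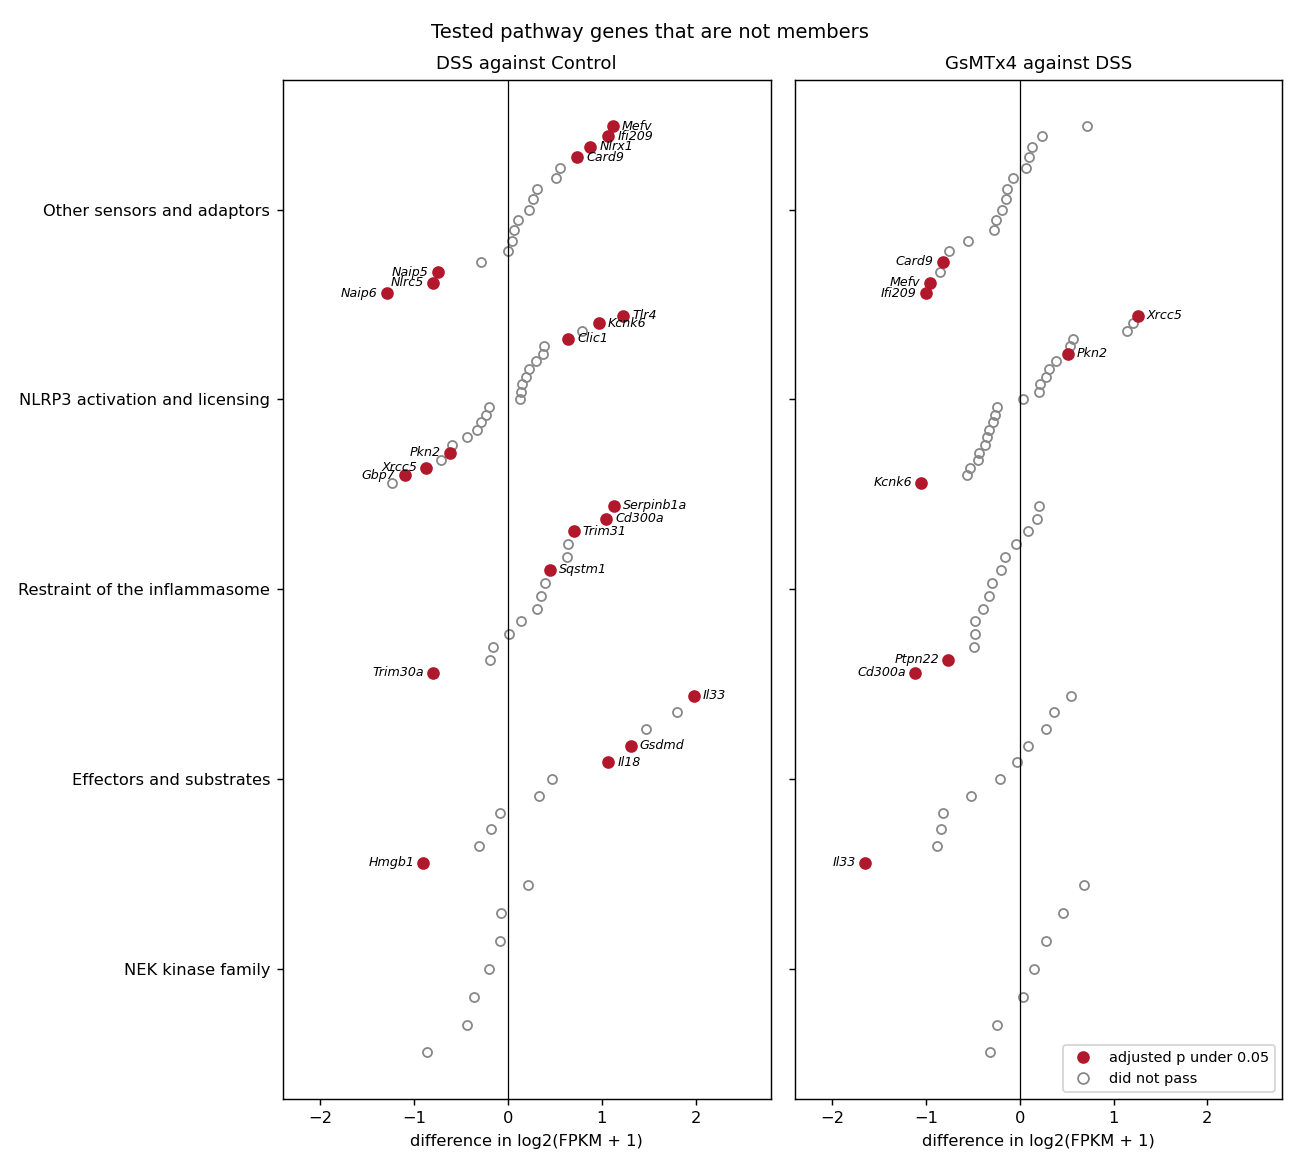
Difference in log2(FPKM + 1) of the 72 tested pathway genes outside the 8 members, by list, for DSS against Control on the left and GsMTx4 against DSS on the right. Filled named points had a limma adjusted p under 0.05, which were 14 higher and 8 lower genes on the left and 2 higher and 7 lower genes on the right.

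In GsMTx4 against DSS 2 of the 72 pathway genes rose and 7 fell, with a median difference of -0.19, against 0.07 for all tested genes, of which 6.66% rose and 5.62% fell. By list, 0 sensors rose and 3 fell (1 and 5 at an unadjusted p under 0.05), 2 activation genes rose and 1 fell, 0 restraint genes rose and 2 fell (0 and 4 unadjusted), and 0 effectors rose and 1 fell (1 and 3 unadjusted). Over the 72 genes the rises numbered 1 without GsMTx4 2 or any 1 DSS or Control library, and the falls 4 without GsMTx4 2. The sensor falls numbered 5 without GsMTx4 1, and 1 sensor rose without GsMTx4 3. The activation falls numbered 2 without GsMTx4 3 and 0 without DSS 2 or DSS 3, the restraint falls 1 without GsMTx4 2, GsMTx4 3, DSS 1, DSS 3 or any 1 Control library, and the effector falls 0 without GsMTx4 2, GsMTx4 3, DSS 2 or any 1 Control library. Xrcc5 averaged 12.3 ± 1.84 FPKM in GsMTx4 and 4.52 ± 0.626 FPKM in DSS, a difference of 1.26 ± 0.15 (limma adjusted p = 0.00243). Pkn2 rose by 0.51 ± 0.13 (limma adjusted p = 0.0400), a call lost without GsMTx4 2 or any 1 DSS or Control library (adjusted p = 0.0649 to 0.118). Among the sensors, Mefv averaged 1.38 ± 0.0945 FPKM in GsMTx4 and 3.67 ± 0.696 FPKM in DSS, a difference of -0.96 ± 0.19 (limma adjusted p = 0.0141), and Ifi209 fell to 4.12 ± 0.260 FPKM in GsMTx4, against 9.36 ± 2.24 FPKM in DSS (limma adjusted p = 0.00743). Card9 fell by 0.82 (limma adjusted p = 0.0195, and 0.0714 without GsMTx4 2). Kcnk6 fell by 1.05 (limma adjusted p = 0.0198, and 0.0513 to 0.0563 without DSS 2 or DSS 3). Cd300a fell by 1.12 (limma adjusted p = 0.00536). Ptpn22, a phosphatase gene, fell by 0.76 (limma adjusted p = 0.0448) and Il33 by 1.65 (limma adjusted p = 0.0450). The Ptpn22 call was lost without any 1 library but DSS 2 (adjusted p = 0.0695 to 0.110), and the Il33 call without any 1 library but DSS 1 (adjusted p = 0.0547 to 0.116), with a difference of -1.06 without DSS 3. With no filter or with only the 2 groups the calls of Card9 (adjusted p = 0.0541 to 0.0609), Kcnk6 (0.0528 to 0.0635), Pkn2 (0.0652 to 0.127), Ptpn22 (0.0651 to 0.120) and Il33 (0.109 to 0.119) were lost, and those of Pkn2 and Ptpn22 also after TPM rescaling, which their ranges include. Under a mean filter of 5 FPKM 1 sensor and 0 restraint genes fell, because Mefv, Card9, Cd300a and Ptpn22 were below that filter and not tested. Falls numbered 2 for effectors after TPM rescaling or quantile normalization, and 2 for activation genes after quantile normalization or median-of-ratios scaling.

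The other effector genes named for DSS against Control did not pass in GsMTx4 against DSS. Gsdmd had a difference of -0.82 ± 0.25 (limma adjusted p = 0.0638), with GsMTx4 1 above DSS 3, and passed without GsMTx4 1 or without DSS 3 (adjusted p = 0.0287 to 0.0438). Il18 had -0.21 ± 0.20 (limma adjusted p = 0.527) and Il1b -0.84 ± 0.55 (limma adjusted p = 0.337). The Il1b difference was -0.07 without DSS 3. That library held 56.3 FPKM of Il1b, against 8.19 and 13.8 FPKM in DSS 1 and DSS 2 and 8.09 to 11.9 FPKM in GsMTx4. Casp8 had -0.52 ± 0.15 (limma adjusted p = 0.0512) and passed with a mean filter of 5 FPKM, TPM rescaling or quantile normalization (0.0310 to 0.0494). The differences of the others were, for Txnip, -0.53 ± 0.18 (limma adjusted p = 0.0872, and 0.0263 without GsMTx4 3) and, for P2rx7, -0.56 ± 0.32 (limma adjusted p = 0.277). In GsMTx4 against Control limma called 0 of the 72 pathway genes, with 4 higher and 6 lower at an unadjusted p under 0.05. Il18 had the difference 0.86 ± 0.20 (limma adjusted p = 0.229, and 0.0375 without GsMTx4 3), with every GsMTx4 library above every Control library. The same order of libraries held for the effectors Gsdmd (0.49 ± 0.25), Il1b (0.97 ± 0.55), Il1a and Il33, and for 718 of the 14360 tested genes. The effector Hmgb1 went the other way (-0.52 ± 0.15), with every GsMTx4 library below every Control library. In the other lists, Serpinb1a and Trim31 were among the genes above Control in this way, and Naip5 and Nlrc5 among those below. These p-values do not show that the genes were at the Control level.

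Markers of macrophages, neutrophils, B cells and liver differed between groups in which members differed. The 10 macrophage and monocyte markers, all tested, summed to 476 to 576 FPKM in GsMTx4, 796 to 966 FPKM in DSS and 388 to 498 FPKM in Control libraries, and 4 of them rose in DSS against Control and 3 fell in GsMTx4 against DSS. The 7 neutrophil markers summed to 288 to 549 FPKM in GsMTx4, 624 to 1123 FPKM in DSS and 70.2 to 90.8 FPKM in Control libraries, and most of each sum was Ly6g, at 278 to 544 FPKM in GsMTx4, 472 to 1036 FPKM in DSS and 67.4 to 88.8 FPKM in Control. S100a8 stood at 11.2, 0.996 and 0.893 FPKM in GsMTx4, 28.1, 40.5 and 83.2 FPKM in DSS and 0.0735, 0.137 and 0.191 FPKM in Control. Ly6g did not follow S100a8: GsMTx4 3 had the most Ly6g and the least S100a8 of the GsMTx4 libraries. Control libraries held at least 67.4 FPKM of Ly6g with at most 0.191 FPKM of S100a8. The sums, and Ly6g alone, are therefore no measure of neutrophils. S100a9 was at 0 in Control 1 and Cxcr2 in Control 2. Of the 5 neutrophil markers tested 4 rose in DSS against Control (S100a8, S100a9, Retnlg and Ly6g), 2 fell in GsMTx4 against DSS (S100a8 and Retnlg) and 1 rose in GsMTx4 against Control (Ly6g). Of 5 B and plasma cell markers 3 rose in DSS against Control (Cd79a, Jchain and Mzb1) and 1 fell in GsMTx4 against DSS (Mzb1), and of 3 endothelial markers Pecam1 rose in DSS against Control. Of 5 T cell markers limma called 0 in each comparison. The 9 colonic epithelial markers, among them those of cells in which Nlrp6 is made, summed to 3722 to 4395 FPKM in GsMTx4, 3907 to 5497 FPKM in DSS and 3599 to 4618 FPKM in Control, and these ranges overlapped. Krt8 made up the largest part of the sum, and single markers differed. Car1 averaged 81.5 ± 3.69 FPKM in GsMTx4, 470 ± 233 FPKM in DSS and 152 ± 94.9 FPKM in Control, and rose in DSS against Control and fell in GsMTx4 against DSS. Krt20 fell and Slc26a3 rose in GsMTx4 against DSS. The 6 goblet cell markers summed to 2351 to 3460 FPKM in GsMTx4 and 2674 to 6136 FPKM in DSS. In Control they summed to 3000 to 4900 FPKM, and limma called 0 of them in each comparison. The 4 hepatocyte markers summed to 29.6 to 45.6 FPKM in GsMTx4, 2.56 to 6.22 FPKM in DSS and 20.0 to 25.7 FPKM in Control, and 4 of them rose in GsMTx4 against DSS. The Control sum was nearly all Ttr, at 19.1 to 24.5 FPKM. Alb averaged 14.1 ± 0.758 FPKM in GsMTx4, 0.221 ± 0.225 FPKM in DSS and 0.933 ± 0.252 FPKM in Control. Apoa1 averaged 4.13 ± 0.554 FPKM in GsMTx4, 0.0906 ± 0.0453 FPKM in DSS and 0.0261 ± 0.0226 FPKM in Control, where it was at 0 in Control 1. Serpina1c stood at 2.50, 3.52 and 2.49 FPKM in GsMTx4 and was listed at 0 in all 3 Control libraries. In GsMTx4 against Control these 3 genes rose, and in DSS against Control Alb and Ttr fell. The part of these cell types in the members' differences was not tested.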

How the data were processed

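The authors deposited 1 table of FPKM values for 35315 genes in 9 mouse colon libraries, 3 per group. Cutadapt, FastQC and the build GRCm38 are named per the submitters' processing notes, and for the aligner, the FPKM program and strand use the name was not given in the sources used here, so they are left unstated. FPKM holds no read counts, so the depth is unknown and a count test was not used. Values were analysed as log2(FPKM + 1) with limma 3.58.1 (R 4.3.3, empirical Bayes with trend) in 1 fit of all 9 libraries, after keeping genes with at least 1 FPKM in at least 3 libraries. Tests were two-sided, with Benjamini-Hochberg adjustment over all 14360 tested genes and a threshold of 0.05. The procedure was tested on simulated data.

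The members and the pathway lists were chosen with earlier results of these data known. Members were named whatever their values. From each list every passing gene was named where at most 6 passed, otherwise the 3 largest rises and falls, together with Gsdmd, Il1b, Il18, Nek6, Nek9, Txnip, P2rx7 and Casp8, and the 5 genes most like Nek7. Of 85 listed pathway genes 81 were matched by symbol, and Nlrp2, Mnda, Pydc3 and Pydc4 were not analysed here. P-values measure the spread between these libraries. The alternatives were other pseudocounts, filters and scalings, fits of the 2 compared groups, a replicate block, no trend, and each library left out. Figures were drawn with matplotlib 3.10.9, and promoter sequences came from RefSeq.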

Additional observations from a re-analysis of the deposited data

How the results depend on the processing

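No member's difference changed sign where its 2 groups did not overlap. Signs did change where they overlapped, as for Aim2 in DSS against Control (-0.02, and 0.17 under median-of-ratios scaling). Of 399 alternative values 386 shifted by less than the SD between replicates and 13 moved further. Nek7 in GsMTx4 against Control moved from -1.54 to -1.84 at a pseudocount of 0.01 and to -1.44 under median-of-ratios scaling. Of 977 values of named pathway genes 841 kept their side of the threshold, 120 lost it, 16 gained it and 0 reversed. For DSS against Control, with 0 members higher, 1 was higher with a mean filter of 5 FPKM, median-of-ratios scaling, quantile normalization or only the 2 groups, and 0 to 1 with 1 library left out. The 3 lower members became 3 to 4. All genes gave 921 higher and 1541 lower, with 579 and 992 under the mean filter of 5 FPKM, 1418 and 919 under median-of-ratios scaling, and 382 to 1094 and 581 to 2007 with 1 library left out. Pathway genes gave 14 higher and 8 lower, with 6 and 5 with no filter, 5 lower under median-of-ratios scaling, and 7 to 15 and 2 to 9 with 1 library left out. For GsMTx4 against DSS, 2 members were higher, but 1 with no filter or median-of-ratios scaling, 0 with only the 2 groups, and 1 to 3 with 1 library left out. All genes gave 956 higher and 807 lower, with 590 and 483 with no filter, 495 lower under the mean filter of 5 FPKM, 327 and 260 with only the 2 groups, and 393 to 1209 and 323 to 787 with 1 library left out. Pathway genes gave 2 higher and 7 lower, with 1 and 3 with no filter or only the 2 groups, 1 higher under TPM rescaling, 3 lower under the mean filter of 5 FPKM, and 1 to 3 and 4 to 9 with 1 library left out. For GsMTx4 against Control, all genes gave 27 higher and 7 lower, with 3 and 1 at a pseudocount of 0.01, 2 lower at 0.1, 12 lower with no filter, 3 and 2 under the mean filter of 5 FPKM, 3 lower under median-of-ratios scaling or quantile normalization, and 12 to 70 and 1 to 13 with 1 library left out. Pathway genes gave 0 to 1 higher with 1 library left out. The mean filter of 5 FPKM leaves genes below it untested, among them Mefv, Card9, Cd300a, Ptpn22 and Il33, so its counts miss their calls. The cause of the other shifts was not tested.

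Replicate numbers did not pair the libraries: deviations of same-numbered libraries correlated at -0.23 to 0.10 (9 pairs, 0 over 0.1). With the replicate block, all genes that fell in DSS against Control numbered 995, and in GsMTx4 against DSS 553 rose and 525 fell, with 1 member and 1 pathway gene higher. The block ended the calls of Naip5, Nlrx1, Clic1, Trim31 and Sqstm1 in DSS against Control, and of Pkn2, Ptpn22 and Il33 in GsMTx4 against DSS. FPKM without counts gives no interval for low genes such as Nlrp3.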
